A study of Mus musculus with 12 samples.

Results

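Transcripts of 7 chemokine genes were followed in C2C12 cells, a mouse myoblast line that fuses into multinucleated myotubes when serum is lowered. The genes are Cxcl1, Cxcl5, Cxcl12, Cxcl13, Ccl2, Ccl7 and Cx3cl1, out of 25776 genes with a value in the deposited files. They were taken as a named list, and the list was chosen by the measured D2 values of the siKctd10 and siCont libraries, in which Cxcl5 was higher and Cxcl13 lower after Kctd10 knockdown. For these 7 genes the knockdown difference at D2 is therefore given as a description with no test, and so is the difference between the days for Cxcl5 and Cxcl13. All 7 passed the filter on low values, a TPM (transcripts per 1000000) of at least 1 in at least 3 libraries, as did 13077 genes in all.

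Poly(A) RNA was sequenced from 12 libraries in 4 groups of 3. At D2, cells had received siKctd10 (an siRNA against Kctd10, a substrate adaptor of CUL3 ubiquitin ligases) or siCont (the control siRNA), were moved 24 h later into DMEM with 2% horse serum, and were harvested after 48 h of differentiation. At D0, cells had received siKctd10 or siCont, were kept below confluence in DMEM with 10% FBS, and were harvested 48 h after the siRNA. Medium, density and time since the siRNA therefore change together between the days and cannot be told apart, and the labels do not say whether replicates were separate cultures. The p-values below hence reflect the spread among the sequenced libraries alone, which may be technical.

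Chemokines are small secreted proteins that steer the movement of cells through G protein-coupled receptors, and they are bound and displayed by heparan sulphate on cell surfaces. The spacing of the first cysteines of the mature protein tells CC, CXC and CX3C chemokines apart. CXC chemokines with a glutamate-leucine-arginine (ELR) motif before the first cysteine attract neutrophils. In injured muscle, chemokines of muscle and immune cells recruit neutrophils and monocytes, and several of them also act on myoblasts.

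The coding sequences around the first cysteines place the 7 genes in these classes, and the order below follows the roles that go with them. The capitals mark the codons of the first 2 cysteines, and the sequences are sense strand, from GENCODE M21 transcripts of the build GRCm38 (mm10). Cxcl1 and Cxcl5 have the ELR motif, with glutamate, leucine and arginine codons just before the first capitals.

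Cxcl5: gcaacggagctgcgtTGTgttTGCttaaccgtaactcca
Cxcl1: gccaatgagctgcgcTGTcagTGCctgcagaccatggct
Cxcl12: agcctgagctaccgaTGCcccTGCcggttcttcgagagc
Cxcl13: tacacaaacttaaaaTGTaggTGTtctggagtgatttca
Ccl2: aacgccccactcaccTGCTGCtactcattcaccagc
Ccl7: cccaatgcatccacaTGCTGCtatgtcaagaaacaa
Cx3cl1: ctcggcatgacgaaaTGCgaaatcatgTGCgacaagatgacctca

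The CXC genes have 1 codon between the cysteine codons, the CC genes 0 and Cx3cl1 3. Cxcl5 (chr5:90759298-90761625) and Cxcl1 (chr5:90891245-90893115) lie in the CXC cluster of chromosome 5, and Cxcl13 (chr5:95956939-95961068) lies farther along the same chromosome. Ccl2 (chr11:82035577-82037452) and Ccl7 (chr11:82045712-82047523) are neighbours in the CC cluster of chromosome 11. Cx3cl1 (chr8:94772180-94782426) and Cxcl12 (chr6:117168535-117181368) stand apart from these clusters. All are on the plus strand of mm10, as the deposited files place them.

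The libraries held an estimated 12.51 to 18.08 read pairs in units of 1000000, and between 12024 and 12605 genes reached 1 TPM. Kctd10 averaged 32.0 ± 4.58 TPM in D2 siKctd10 and 283 ± 6.77 TPM in D2 siCont, and 23.1 ± 2.69 TPM in D0 siKctd10 and 266 ± 7.32 TPM in D0 siCont (SD, n = 3 each). The siRNA thus left 11.3% of the Kctd10 level at D2 and 8.66% at D0. On the second principal component (10.4% of the variance) the siKctd10 libraries numbered 3 stood farthest out on both days (-42.4 each, against -20.3 to -1.2 for the other 4 siKctd10 libraries), and values without them are given where they end a call. In bulk RNA, fewer cells of a kind and less RNA per cell cannot be told apart.

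The 7 genes held 94.8 to 98.6% of the TPM of the chemokine ligand genes in every library, leaving aside Mif, an atypical ligand. With Mif counted, they held 56.4 to 89.1%, and the lowest share was in the D2 siCont library numbered 1. Their sum was 245 to 286 TPM in D2 siKctd10 and 236.5 to 259 TPM in D2 siCont, and 646 to 803 TPM in D0 siKctd10 and 725 to 732 TPM in D0 siCont. The sums of the D2 libraries were all below those of the D0 libraries, and the ranges of the siRNA arms overlapped on each day.

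**Figure D1:**
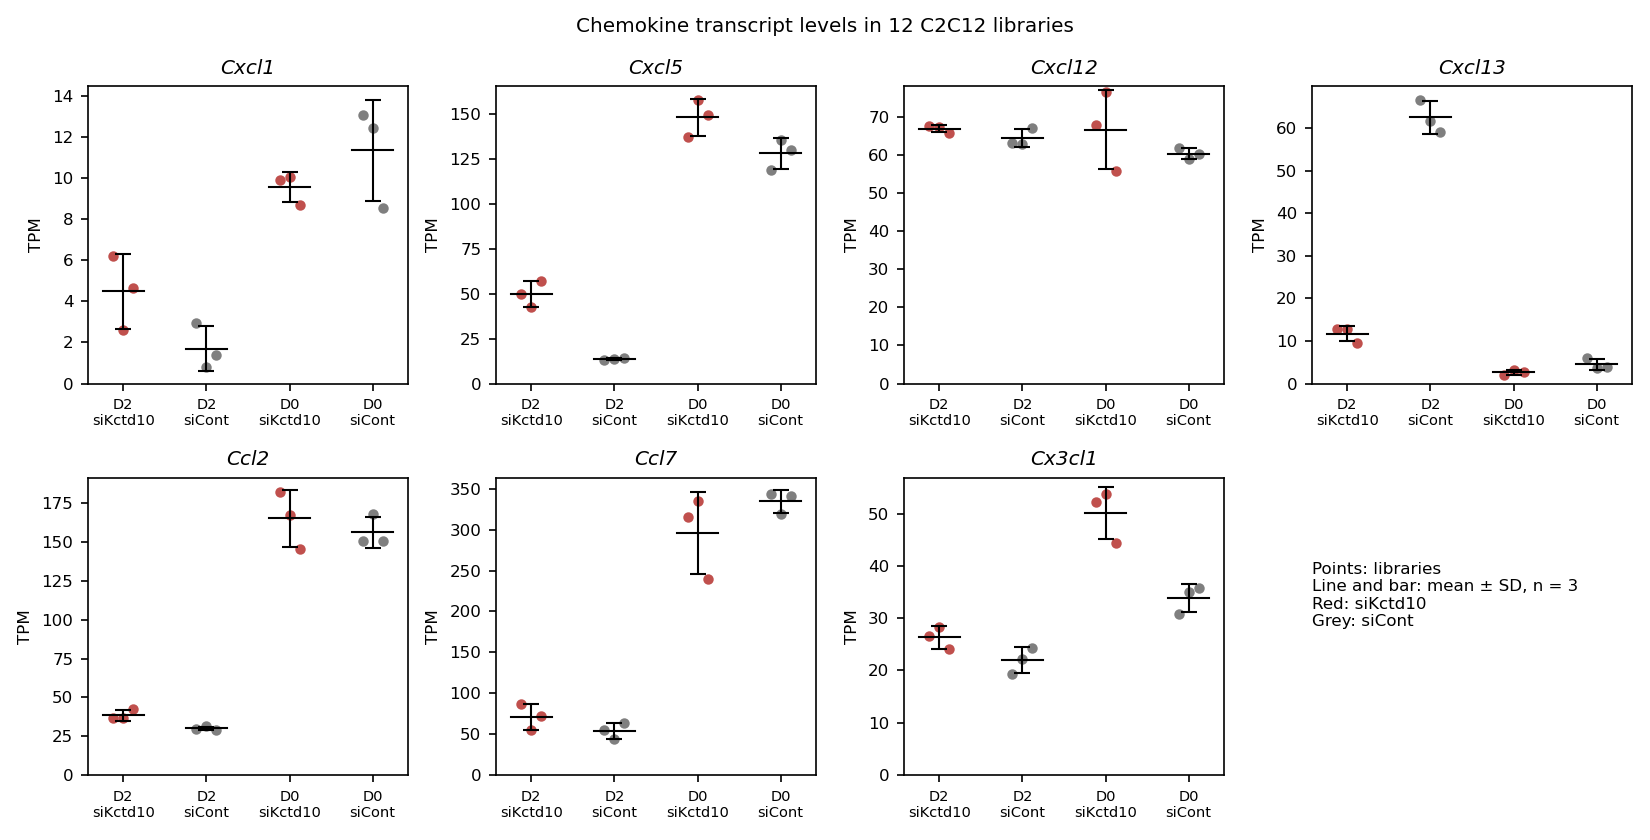
TPM of each chemokine gene (vertical axis, linear, from 0) in the 4 groups, with 1 point per library and the mean ± SD (n = 3) in black. Cxcl13 is near 60 TPM in D2 siCont and below 13 TPM in the 9 other libraries, Cxcl5 is at 42.8 TPM or more in all groups except D2 siCont, and Cxcl12 stays between 55.7 and 76.3 TPM.

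The make-up of this pool also differed between the groups. Ccl7 averaged 26.3 ± 4.04% of it in D2 siKctd10 and 21.7 ± 2.98% in D2 siCont, and 39.9 ± 2.50% in D0 siKctd10 and 45.9 ± 2.08% in D0 siCont (SD, n = 3 each). Cxcl13 averaged 4.37 ± 0.851% in D2 siKctd10 and 25.2 ± 2.08% in D2 siCont, against 0.358 ± 0.0750% in D0 siKctd10 and 0.616 ± 0.183% in D0 siCont. Cxcl5 averaged 18.5 ± 1.93% in D2 siKctd10 and 5.48 ± 0.180% in D2 siCont, against 20.2 ± 2.66% in D0 siKctd10 and 17.6 ± 1.08% in D0 siCont. By mean TPM, Cxcl12 and Cxcl13 came first in D2 siCont and Ccl7 in the other 3 groups, although the libraries of Ccl7 and Cxcl12 overlapped in both D2 groups.

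**Figure D2:**
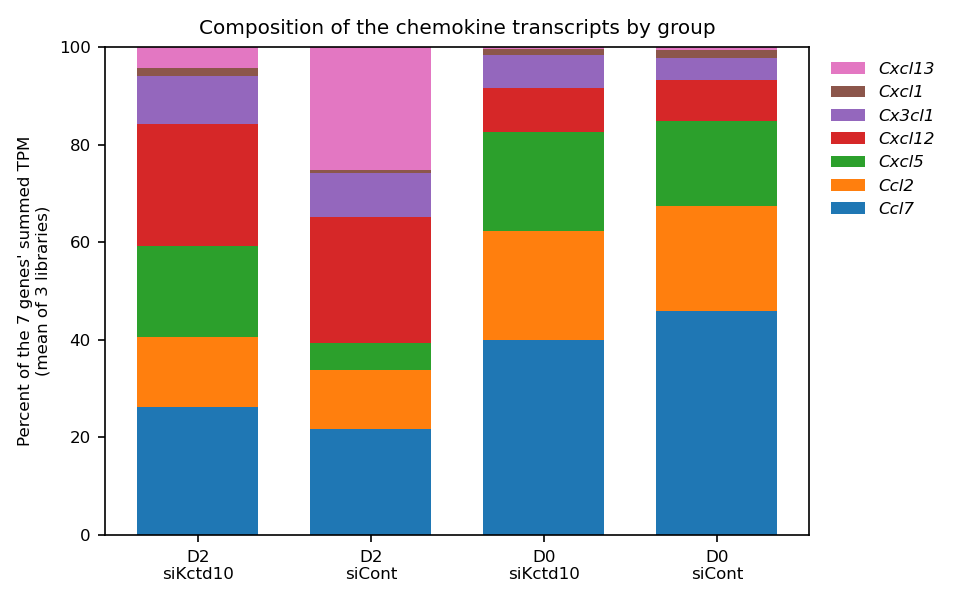
Percent of the 7 genes' summed TPM held by each gene (vertical axis, stacked to 100), as the mean of 3 libraries in each group. Ccl7, Ccl2 and Cxcl5 together fill most of the D0 bars, and the Cxcl13 segment is 25.2% in D2 siCont against 4.37% in D2 siKctd10.

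The comparisons answer how each gene's level differed between D2 and D0 in each siRNA arm, and between siKctd10 and siCont on each day. Values log2(TPM + 1) were fitted with limma across all 13077 genes with two-sided tests, p-values were adjusted by Benjamini-Hochberg and held against 0.05, and fold changes on this scale understate those of low genes. Between D2 and D0 in siKctd10, 4 of the 5 tested chemokines passed and all 4 fell, where 36.4% of all genes passed and 13.3% passed as lower. In siCont, 4 of 5 passed between the days and all 4 fell, where 35.5% of all genes passed and 14% passed as lower. Between siKctd10 and siCont at D0, 1 of 7 passed, where 2.45% of all genes passed, and 3 of 7 did not overlap, where 23.2% of all genes did not. At D2, 3 of 7 did not overlap between siKctd10 and siCont, namely Cxcl5, Cxcl13 and Ccl2, where 28.4% of all genes did not. The list was chosen by Cxcl5 and Cxcl13 in this contrast, so the count cannot be held against that share. Of all genes, 4.75% passed the test at D2.

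**Figure D3:**
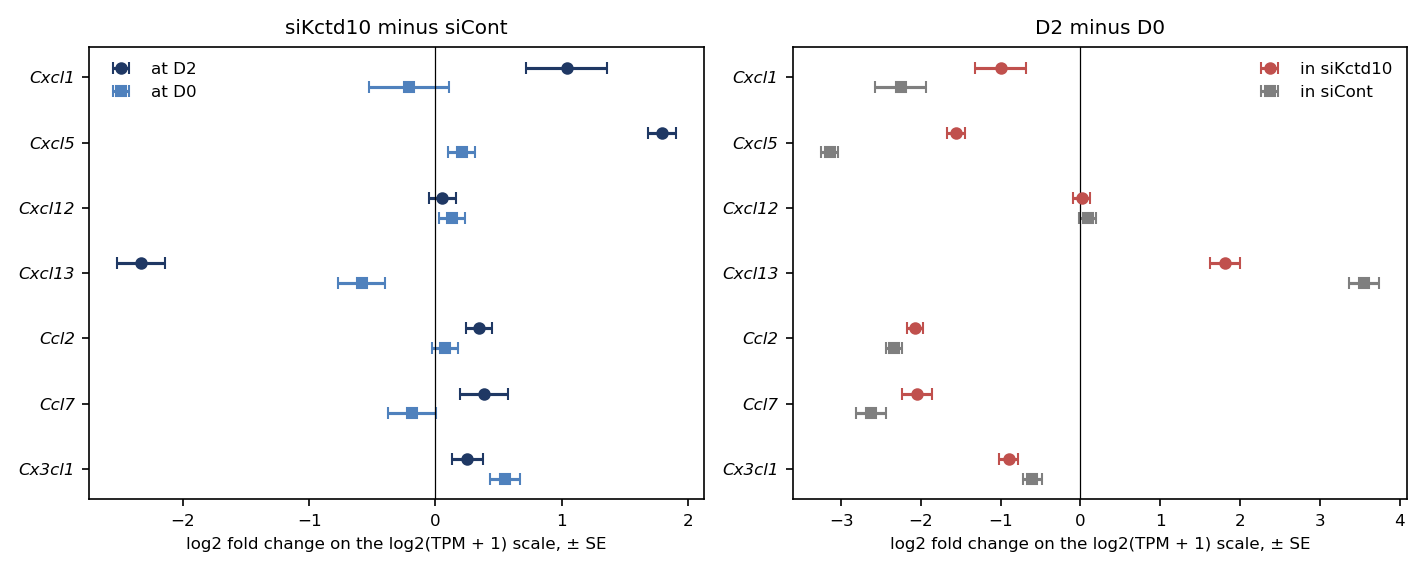
Log2 fold change of each chemokine on the log2(TPM + 1) scale, with its SE from the fit (horizontal axis), for siKctd10 minus siCont on each day (left) and D2 minus D0 in each siRNA arm (right). Cxcl5 and Cxcl13 lie farthest from 0 at D2, at 1.79 and -2.33, and Cxcl12 lies near 0 throughout.

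Cxcl5 attracts neutrophils through the receptor CXCR2. It had 49.6, 42.8 and 57.1 TPM in the D2 siKctd10 libraries and 13.3, 13.4 and 14.0 TPM in the D2 siCont libraries, and 137, 158 and 149 TPM in the D0 siKctd10 libraries and 119, 135 and 130 TPM in the D0 siCont libraries. No pair of groups overlapped, and the order from the highest was D0 siKctd10, D0 siCont, D2 siKctd10 and D2 siCont. At D2 its mean in siKctd10 was 3.67-fold that in siCont (log2 fold change 1.79, SE 0.11). The day difference was -1.56 in siKctd10 and -3.14 in siCont on the log2 scale, and how these differ was not tested. At D0 the siKctd10 mean was 1.16-fold that in siCont, which did not pass (log2 fold change 0.21, SE 0.11, limma, adjusted p = 0.4).

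Cxcl1, the other ELR chemokine and also a CXCR2 ligand, was the least abundant of the 7 at D2 siCont. It had 6.23, 2.59 and 4.64 TPM in D2 siKctd10 and 2.93, 0.811 and 1.37 TPM in D2 siCont, and 9.91, 10.1 and 8.72 TPM in D0 siKctd10 and 13.1, 12.5 and 8.55 TPM in D0 siCont. The siRNA arms overlapped on both days, and the D2 libraries lay below the D0 libraries in each arm. These low values rest on an estimated 17 to 33 read pairs per library in D2 siKctd10 and 4 to 16 in D2 siCont. Between D2 and D0, Cxcl1 fell by 1.00 on the log2 scale in siKctd10 (SE 0.32, limma, adjusted p = 0.034) and by 2.25 in siCont (SE 0.32, limma, adjusted p = 0.00038). The siKctd10 call ended without any of the 3 D0 siKctd10 libraries (adjusted p = 0.059 to 0.083), without D2 siKctd10 number 2 (0.12) or number 3 (0.061), without both siKctd10 libraries numbered 3 (0.093) and with a pseudocount of 0.1 (0.063). The knockdown difference was 1.04 at D2 (SE 0.32, a description) and -0.21 at D0 (SE 0.32, limma, adjusted p = 0.8).

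Ccl2 and Ccl7, neighbours that attract monocytes through CCR2, were the most abundant CC chemokines. Ccl2 had 36.5, 36.5 and 42.6 TPM in D2 siKctd10 and 29.6, 31.3 and 29.3 TPM in D2 siCont, and 146 to 182 TPM over the D0 siKctd10 libraries and 150 to 168 TPM over the D0 siCont libraries. Ccl7 had 87.1, 54.8 and 71.7 TPM in D2 siKctd10 and 54.5, 44.1 and 63.5 TPM in D2 siCont, and 239 to 335 TPM in D0 siKctd10 and 319 to 344 TPM in D0 siCont. Both genes were lower in every D2 library than in any D0 library. Over all genes, 48.4% did not overlap between the days in siKctd10 and 52.3% in siCont, counted in either direction. Ccl2 fell to 38.5 ± 3.56 TPM against 165 ± 18.5 TPM in siKctd10 (log2 fold change -2.07, SE 0.10, limma, adjusted p = 4.4e-07), and to 30.1 ± 1.11 TPM against 156 ± 10.0 TPM in siCont (log2 fold change -2.34, SE 0.10, limma, adjusted p = 1.5e-07). Ccl7 fell by 2.05 in siKctd10 and by 2.62 in siCont (SE 0.19 each, limma, adjusted p = 2.4e-05 and 4.1e-06).

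For knockdown, neither CC gene passed at D0, where the log2 fold change was 0.08 for Ccl2 (SE 0.10, limma, adjusted p = 0.77) and -0.19 for Ccl7 (SE 0.19, limma, adjusted p = 0.68). At D2, as a description, it was 0.34 for Ccl2 and 0.38 for Ccl7. The D2 siKctd10 values of Ccl2 were all above those of D2 siCont, with means 1.28-fold apart, while those of Ccl7 overlapped. Over the 12 libraries the levels of the pair ran together (Pearson r = 0.981 of log2(TPM + 1)), a description in which the libraries share their day and siRNA.

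Cx3cl1 encodes fractalkine, a membrane-anchored chemokine that is shed by the proteases ADAM10 and ADAM17 and binds CX3CR1. It was the chemokine that rose with knockdown at D0. Its level was 26.6, 28.3 and 24.1 TPM in D2 siKctd10 and 19.4, 22.3 and 24.2 TPM in D2 siCont, and 52.2, 53.7 and 44.3 TPM in D0 siKctd10 and 30.8, 34.9 and 35.7 TPM in D0 siCont. At D0 the lowest siKctd10 library was above the highest siCont library, and at D2 the arms overlapped, with the siKctd10 low of 24.1 TPM just under the siCont high of 24.2 TPM. The D0 means were 50.1 ± 5.03 TPM in siKctd10 and 33.8 ± 2.64 TPM in siCont (SD, n = 3 each), a 1.48-fold difference (log2 fold change 0.55, SE 0.12, limma, adjusted p = 0.048).

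The D0 call for Cx3cl1 was close to the threshold. It ended with no filter on low values (adjusted p = 0.056), quantile normalization (0.082), a fit of the D0 libraries alone (0.16), and in 10 of the 12 fits that left out 1 library, those of each D0 siCont library, D0 siKctd10 numbers 1 and 2, D2 siCont numbers 2 and 3 and each D2 siKctd10 library (adjusted p = 0.056 to 0.16). Its log2 fold change stayed between 0.49 and 0.63 in those 12 fits. At D2 relative to D0, Cx3cl1 fell by 0.90 in siKctd10 (limma, adjusted p = 0.00028) and by 0.60 in siCont (limma, adjusted p = 0.0033). At D2 the knockdown difference was 0.25 (SE 0.12, a description).

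Cxcl12, a homeostatic chemokine that binds CXCR4 and ACKR3, was steady as a gene. It averaged 66.8 ± 0.976 TPM in D2 siKctd10 and 64.3 ± 2.35 TPM in D2 siCont, and 66.6 ± 10.4 TPM in D0 siKctd10 and 60.2 ± 1.39 TPM in D0 siCont (SD, n = 3 each). The highest of the 12 libraries was 1.37-fold the lowest, against 2.77-fold to 32.0-fold for the other 6 genes. The log2 fold change was 0.13 for knockdown at D0 (SE 0.10, limma, adjusted p = 0.59), 0.02 for D2 against D0 in siKctd10 (limma, adjusted p = 0.92) and 0.09 in siCont (limma, adjusted p = 0.54). When read pairs estimated from coverage were summed per gene and fitted with voom, the day differences of Cxcl12 became -0.55 in siKctd10 (adjusted p = 0.00078) and -0.41 in siCont (adjusted p = 0.0064). That sum gives more weight to the longer of its transcripts, and voom also scales the libraries. The part of either in these differences was not tested.

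Below the gene level the Cxcl12 transcripts differed, a comparison chosen after the values were seen. A 3-exon transcript of 1878 bases (uc009dks.2) encodes the 89-codon alpha form, and a 4-exon transcript of 5670 bases (uc009dkt.2) encodes the 119-codon gamma form through a distal last exon (chr6:117176086-117181368). The 93-codon beta form (uc009dku.2) was listed at 0 in every library, and its last exon lies inside that of the gamma form, so the deposited estimates cannot separate the pair with certainty. All 3 forms share 89 codons, and the codons past these are shown because the distal exon adds them, with lysine and arginine codons in capitals.

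Cxcl12 gamma: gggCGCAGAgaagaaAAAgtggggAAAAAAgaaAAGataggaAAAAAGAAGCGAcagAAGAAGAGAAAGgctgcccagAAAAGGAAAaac
Cxcl12 beta: AGGctcAAGatg

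In the gamma form 17 of the 30 added codons are lysine or arginine, and this basic tail is known to bind heparan sulphate tightly. The 4-exon transcript had 12.2, 17.6 and 16.3 TPM in D2 siKctd10 and 6.20, 6.05 and 7.18 TPM in D2 siCont, and 31.8, 34.4 and 27.6 TPM in D0 siKctd10 and 16.1, 18.9 and 18.2 TPM in D0 siCont. On each day every siKctd10 library was above every siCont library, and in each arm every D2 library was below every D0 library. The share of all transcripts without overlap was not computed. Over genes that share, in either direction, was 23.2% for knockdown at D0 and 28.4% at D2, and 48.4% between the days in siKctd10 and 52.3% in siCont. Its share of Cxcl12 TPM was 23.0 ± 4.36% in D2 siKctd10 and 10.1 ± 0.577% in D2 siCont, and 47.2 ± 2.28% in D0 siKctd10 and 29.5 ± 3.13% in D0 siCont (SD, n = 3 each).

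Over 18409 transcripts fitted in the same way, the 4-exon Cxcl12 transcript fell between D2 and D0 by 0.99 in siKctd10 (SE 0.15, limma, adjusted p = 0.0011) and by 1.33 in siCont (SE 0.15, limma, adjusted p = 0.00017), where 25.1% and 24.5% of transcripts passed. At D0 it rose with knockdown (log2 fold change 0.78, SE 0.15, limma, adjusted p = 0.043), where 1.48% of transcripts passed. That D0 call ended in several alternatives, among them the D0 libraries alone (adjusted p = 0.11), quantile normalization (0.055), no filter (0.06) and omission of both siKctd10 libraries numbered 3 (0.077), and fits without 1 library gave adjusted p = 0.03 to 0.15. The 3-exon Cxcl12 transcript averaged 51.5 ± 3.31 TPM in D2 siKctd10 and 57.9 ± 1.74 TPM in D2 siCont, and 35.3 ± 6.97 TPM in D0 siKctd10 and 42.5 ± 2.87 TPM in D0 siCont. It rose between D2 and D0 in siKctd10 (0.55, limma, adjusted p = 0.013) and in siCont (0.44, limma, adjusted p = 0.036). The siCont call ended without filter (adjusted p = 0.053), with median-ratio scaling (0.077) and without any D0 or D2 siCont library (0.052 to 0.11), and the siKctd10 call with only its own groups in the fit (0.08). The knockdown difference of this transcript at D0 was -0.28 (limma, adjusted p = 0.43).

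**Figure D4:**
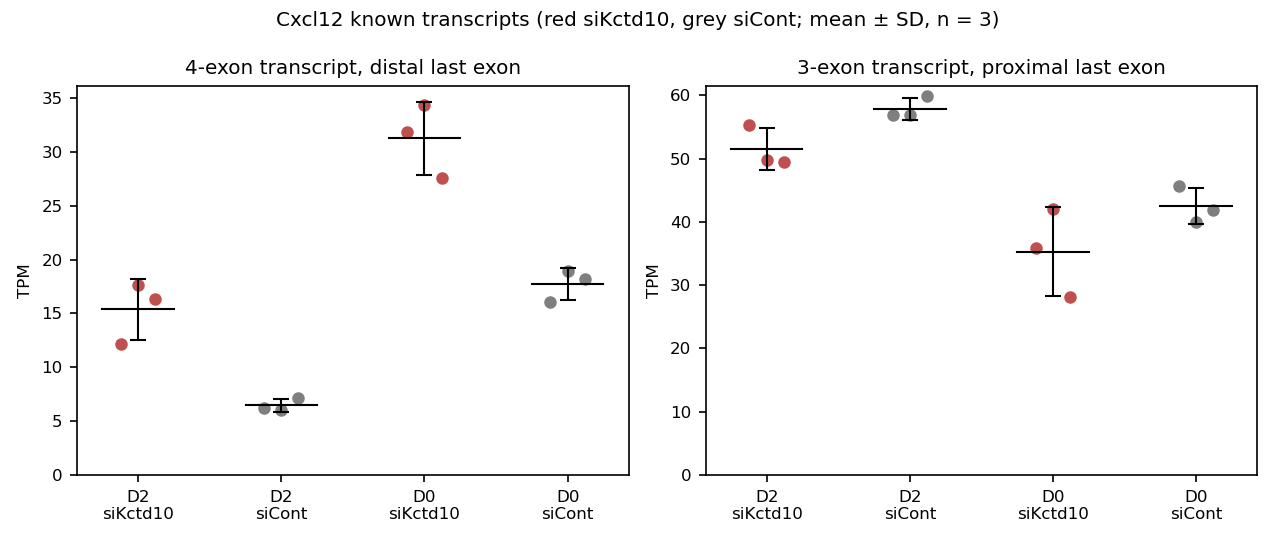
TPM of the 4-exon (left) and 3-exon (right) Cxcl12 transcripts (vertical axes, linear, from 0) by group, with 1 point per library and the mean ± SD (n = 3). In the left panel the D0 siKctd10 points (27.6 to 34.4 TPM) lie above all others and the D2 siCont points (6.05 to 7.18 TPM) below all others.

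Cxcl13 attracts B cells through CXCR5 and is known above all from the follicular stroma of lymphoid organs. It had 12.7, 12.7 and 9.62 TPM in D2 siKctd10 and 66.6, 61.7 and 59.1 TPM in D2 siCont, and 2.08, 3.14 and 2.65 TPM in D0 siKctd10 and 5.99, 3.69 and 3.78 TPM in D0 siCont. No pair of groups overlapped, and the order from the highest was D2 siCont, D2 siKctd10, D0 siCont and D0 siKctd10. The D2 siKctd10 mean was 18.7% of the D2 siCont mean (log2 fold change -2.33, SE 0.19, a description). The day means were 4.45-fold apart in siKctd10 and 13.9-fold in siCont (log2 fold change 1.81 and 3.56, descriptions). At D0, where the gene rested on an estimated 14 to 26 read pairs per library in siKctd10 and 25 to 44 in siCont, the knockdown difference did not pass (-0.58, SE 0.19, limma, adjusted p = 0.16), although all 3 siKctd10 libraries were below all 3 siCont libraries, as for 8.78% of genes.

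Over the 12 libraries Cxcl13 and Cxcl5 ran in opposite directions (Pearson r = -0.99 of log2(TPM + 1), a description over libraries that share day and siRNA). The list was chosen by the opposite D2 differences of these genes, so their opposition was in part set by that choice. The genes whose levels were most like that of Cxcl13, among 2333 single-transcript genes with a mean TPM of at least 5, were Ccn3 (r = 0.983), Adora2b (0.971) and Myf5 (0.971). For Cxcl5 they were Fam107b (0.978), Foxf2 (0.972) and Ddah1 (0.972), and for Cxcl1 Ddit4l (0.96), Ranbp3l (0.952) and Sdf2l1 (0.944). For Ccl2 they were Dusp9 (0.994), Ccne1 (0.992) and Podxl (0.992), and for Ccl7 Cdca7 (0.984), Dyrk3 (0.983) and Mars2 (0.983). For Cx3cl1 they were Fam91a1 (0.98), Cdr2 (0.98) and Parvb (0.979). The steady Cxcl12 had the lowest likeness, at 0.895 for Ppme1, 0.842 for Clptm1l and 0.83 for Rab21.

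The neighbours of the members in the chemokine clusters were mostly silent. In the CXC cluster, Pf4, Cxcl3 and Cxcl2 were listed at 0 in every library, and Cxcl15 stayed under 1 TPM. Ppbp, an ELR chemokine whose start lies 9.2 kb from that of Cxcl5, was the exception. It had 1.62, 1.91 and 2.82 TPM in D2 siKctd10 and 0.444 TPM, 0 and 0 in D2 siCont, and 4.56 to 5.01 TPM in D0 siKctd10 and 2.71 to 5.86 TPM in D0 siCont. As for Cxcl5, its D2 siKctd10 libraries were all above those of D2 siCont and below those of D0 siKctd10, but the highest of them passed the lowest D0 siCont library. Ppbp was higher with knockdown at D2 (log2 fold change 1.45, SE 0.25, limma, adjusted p = 0.012) and fell between D2 and D0 in siCont (-2.28, limma, adjusted p = 7.6e-05). It also fell between the days in siKctd10 (-0.91, limma, adjusted p = 0.018), a call that ended in some alternatives (adjusted p up to 0.17). The D2 knockdown call for Ppbp ended with a pseudocount of 5 (adjusted p = 0.056) and without both siKctd10 libraries numbered 3 (0.061). In the CC cluster, Ccl11, 22.3 kb from Ccl2, averaged 1.51 to 2.83 TPM over the groups, Ccl12 was listed at 0, and Ccl8 and Ccl1 averaged under 0.5 TPM.

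**Figure D5:**
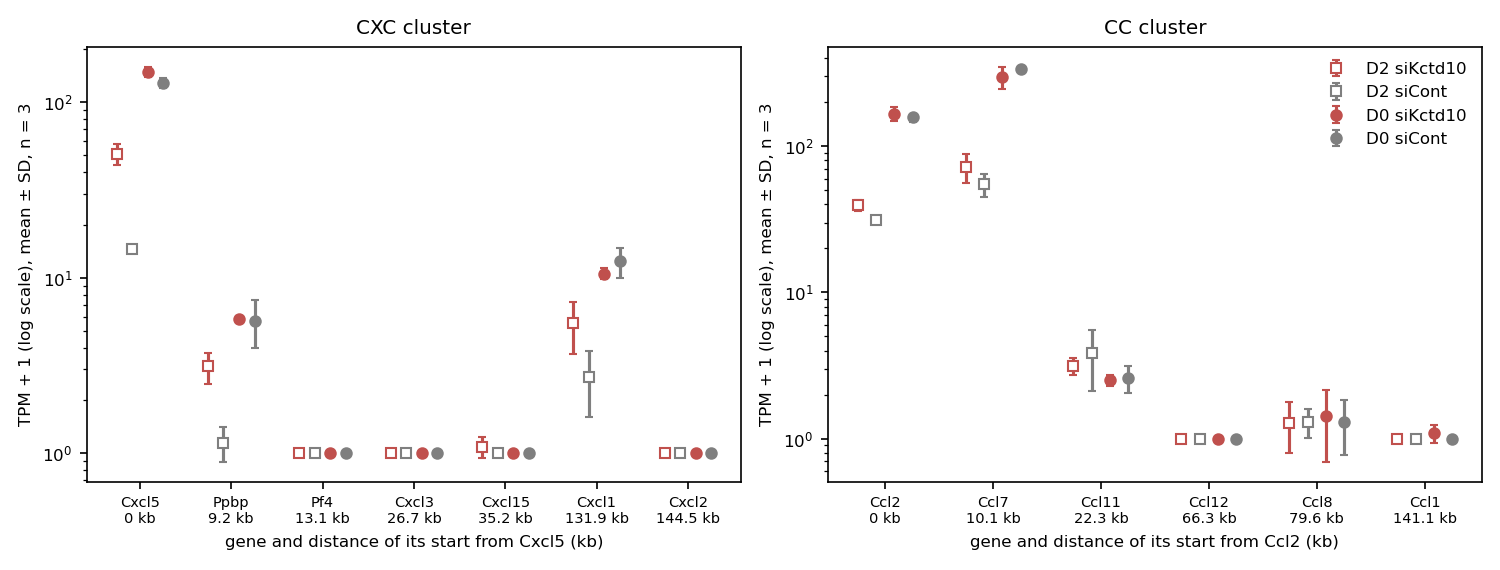
Mean TPM + 1 ± SD (n = 3, log axis) of the genes of the CXC cluster (left) and the CC cluster (right), in order of distance from Cxcl5 or Ccl2. Ppbp follows the order of groups of its neighbour Cxcl5 at D2 (2.12 TPM in siKctd10 and 0.148 TPM in siCont), and genes at 1 on this axis are listed at 0.

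Of the 32 other chemokine ligand genes, 23 stayed under 1 TPM in every library and 7 passed the filter. By limma 0 of the 7 passed for knockdown at D0 (1 at an unadjusted p under 0.05, and 0 by voom). At D2, 1 of 7 rose with knockdown (Ppbp) and 0 fell, where 4.75% of all genes were called. From the day comparison, 2 of 7 rose and 2 fell in siKctd10, where 36.4% of all genes were called. In siCont 1 of 7 rose and 2 fell, where 35.5% were called. Cxcl14, a chemokine made mainly by epithelia, averaged 1.53 ± 0.198 TPM in D2 siKctd10 and 2.12 ± 0.261 TPM in D2 siCont and was listed at 0 in every D0 library. It passed the filter through the D2 libraries alone, which favoured its being counted as risen with the day. Ccl9 fell to 0.70 ± 0.44 TPM in D2 siCont, against 2.75 ± 0.858 TPM in D0 siCont (log2 fold change -1.15, limma, adjusted p = 0.0088).

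Most receptors of the 7 chemokines were at low levels in these cells. Cxcr2, Ccr2, Cx3cr1, Cxcr5 and Ackr1, 5 of the 7 receptors listed, stayed under 1 TPM in every library. Ackr3, a scavenging receptor of Cxcl12, averaged 2.09 ± 0.115 TPM in D2 siKctd10 and 2.36 ± 0.148 TPM in D2 siCont, and passed in none of the 4 comparisons by limma or voom. Cxcr4, the signalling receptor of Cxcl12, had 2.51, 2.40 and 56.9 TPM in D2 siKctd10 and 0.719, 2.08 and 2.03 TPM in D2 siCont, so that its D2 siKctd10 mean rests on the library numbered 3. It rose between D2 and D0 in siKctd10 (log2 fold change 2.62, SE 0.90, limma, adjusted p = 0.046), a call that ended in 9 of the 12 fits without 1 library (adjusted p = 0.058 to 0.11). Over those 12 fits its log2 fold change was 1.26 to 3.31, and the lowest was without the D2 siKctd10 library numbered 3 (1.26, limma, adjusted p = 0.0057). Voom did not call it (3.86, adjusted p = 0.11). Cxcr4 was under 1 TPM in every D0 library and passed the filter through D2 libraries, so the filter itself favoured a rise with the day.

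Among 16 further chemokine receptors, 3 passed the filter. Between D2 and D0, 1 of the 3 rose and 1 fell in siCont, and 1 rose and 0 fell in siKctd10. Over all genes, 35.5% were called in siCont and 36.4% in siKctd10. Ccr1 fell in siCont, from 3.07 ± 0.854 TPM at D0 to 0.860 ± 0.191 TPM at D2 (log2 fold change -1.11, limma, adjusted p = 0.021). Fits without 1 library gave adjusted p up to 0.072, and the siKctd10 fall did not pass (-0.80, limma, adjusted p = 0.076). Ccr1 passed the filter through D0 libraries, which favoured a fall. Ackr4 encodes an atypical receptor that takes up Ccl19, Ccl21 and Ccl25 without signalling through G proteins. It had 42.4, 24.5 and 31.1 TPM in D2 siKctd10 and 3.45, 5.31 and 4.21 TPM in D2 siCont, and 0.546 to 1.14 TPM in D0 siKctd10 and 0.524 to 0.725 TPM in D0 siCont. The D2 siKctd10 libraries were far above all others. Ackr4 rose with knockdown at D2 (log2 fold change 2.64, SE 0.22, limma, adjusted p = 0.00023) and between the days in both arms, by 4.24 in siKctd10 (adjusted p = 5.6e-07) and by 1.69 in siCont (adjusted p = 2e-04). Its transcripts share exon bases with another gene or with each other, so the estimate is uncertain. At D0 it reached at most 1.14 TPM, so it passed the filter through the D2 libraries, which favoured a rise with the day.

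Some of the genes that process and present chemokines changed with the day. Of 14 listed, 12 passed the filter, and between D2 and D0 5 rose and 2 fell in each arm, where 36.4% of all genes were called in siKctd10 and 35.5% in siCont, with a median log2 fold change of 0.24 in siKctd10 and 0.27 in siCont (0.12 and 0.09 over all genes). Mmp2, a gelatinase that trims Ccl7 and Cxcl12, averaged 383 ± 30.1 TPM in D2 siKctd10 and 239 ± 4.56 TPM in D2 siCont, and 68.3 ± 12.9 TPM in D0 siKctd10 and 71.0 ± 8.06 TPM in D0 siCont. Ext1, which builds heparan sulphate chains, averaged 289.8 ± 8.34 TPM in D2 siKctd10 and 388 ± 7.01 TPM in D2 siCont, and 93.7 ± 4.39 TPM in D0 siKctd10 and 82.2 ± 6.27 TPM in D0 siCont. By limma, Mmp2, Mmp14, Sdc2 and Ext1 rose with the day in both arms, Sdc1 in siKctd10 and Adam10 in siCont. Sdc3 fell in both arms, Hs6st1 in siKctd10 and Sdc4 in siCont. Fits without 1 library gave adjusted p up to 0.084 for Sdc1. For knockdown at D2, 3 of 12 rose and 1 fell, where 4.75% of all genes were called. Mmp2 rose by 0.68 (limma, adjusted p = 0.023), Sdc4, a heparan sulphate proteoglycan of the cell surface, by 0.48 (0.0063), and Mmp14, the membrane protease that activates Mmp2, by 0.49 (0.042), while Ext1 fell by 0.42 (0.0095). The Mmp2 call at D2 ended in 5 of the 12 fits without 1 library (adjusted p = 0.064 to 0.08), and that of Mmp14 in 10 of 12 (0.052 to 0.13). At D0, 0 of 12 passed for knockdown by limma (4 at an unadjusted p under 0.05, and 1 by voom).

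Several members are known targets of NF-kB, a transcription factor of inflammatory signalling, so 31 genes of that pathway and its textbook targets were read beside them. Of 23 that passed the filter, 3 rose and 0 fell with knockdown at D0, with a median log2 fold change of 0.12 (0.05 over all genes, of which 1.48% passed as higher). Rela (-0.25, limma, adjusted p = 0.18) and Nfkbia (-0.21, limma, adjusted p = 0.39) were lower without overlap, as were 8.78% of all genes. Of the list, 8 genes stayed under 1 TPM in every library, among them Icam1, Il6 and Tnf. Csf1, a macrophage growth factor, averaged 313 ± 22.8 TPM in D0 siKctd10 and 185.5 ± 25.6 TPM in D0 siCont (log2 fold change 0.76, limma, adjusted p = 0.021). Ptgs2, the inducible cyclooxygenase, averaged 76.7 ± 5.53 TPM in D0 siKctd10 and 46.2 ± 3.85 TPM in D0 siCont (0.72, limma, adjusted p = 0.0051). Vcam1, an adhesion molecule, averaged 283 ± 16.4 TPM in D0 siKctd10 and 177 ± 6.79 TPM in D0 siCont (0.67, limma, adjusted p = 0.02).

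For knockdown at D2, 2 of 23 rose and 0 fell, where 4.75% of all genes were called, with a median of 0.26 (0.08 over all genes). Csf1 rose by 0.68 (limma, adjusted p = 0.02) and Nfkb2, a subunit of the noncanonical arm, by 0.89 (limma, adjusted p = 0.048). With the day, 7 of 23 rose and 2 fell in siKctd10, where 36.4% of all genes were called, and 3 rose and 1 fell in siCont, where 35.5% were called. Map3k14, the kinase of the noncanonical arm, rose by 1.17 in siKctd10 (adjusted p = 5.8e-05) and by 0.92 in siCont (adjusted p = 0.00027), and Csf1 fell by 1.15 and 1.07 in those arms (limma, adjusted p = 0.00012 and 0.00018). Nfkbie rose by 1.11 in siKctd10 and 1.04 in siCont (limma, adjusted p = 0.00034 and 5e-04), and Rela also rose in both arms. In siKctd10 alone, Nfkb2, Nfkbia, Ikbkb and Traf2 passed as higher and Ptgs2 as lower. With only the compared groups in the fit, the knockdown calls of Csf1 (adjusted p = 0.093 at D0 and 0.085 at D2), of Ptgs2 (0.072) and of Nfkb2 (0.13) ended, and fits without 1 library gave adjusted p up to 0.08 for Csf1, 0.14 for Nfkb2 and 0.079 for Vcam1. Without both siKctd10 libraries numbered 3, the calls of Csf1 at D0 (adjusted p = 0.057) and Nfkb2 at D2 (0.09) also ended.

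Markers of muscle cells were read in the same fits. All 6 myoblast markers and all 6 differentiating myocyte markers passed the filter, and all 12 rose between D2 and D0 in both arms by limma. Of all genes, 36.4% were called in siKctd10 and 35.5% in siCont. Voom called 5 of the 6 myoblast markers in siKctd10. Some of the markers passed the filter through the D2 libraries, among them Ckm, the muscle creatine kinase, which was at most 0.584 TPM in D0 siKctd10 and listed at 0 in D0 siCont. The summed levels of the lists were lower in D2 siKctd10 than in D2 siCont. They were 1860 to 2168 TPM in D2 siKctd10 and 2389 to 2467 TPM in D2 siCont for the myoblast list. For the myocyte list they were 1374 to 1793 TPM in D2 siKctd10 and 2071 to 2432 TPM in D2 siCont. The means of Ncam1, Myh3 and Tnnt3 went the other way. With knockdown at D2, 3 of the 6 myoblast markers fell (Myod1, Myf5 and Itga7) and 2 of the 6 myocyte markers fell (Myog and Mymk), where 4.75% of all genes were called. Voom called 3 and 4 of these lists, and the part of the markers in the chemokine differences was not tested. Ckm averaged 22.2 ± 7.55 TPM in D2 siKctd10 and 40.4 ± 6.46 TPM in D2 siCont (log2 fold change -0.88, limma, adjusted p = 0.06), and Acta1, the skeletal muscle actin, 909 ± 52.6 TPM in D2 siKctd10 and 1376 ± 146 TPM in D2 siCont (-0.59, limma, adjusted p = 0.065). Neither passed, although their groups did not overlap, as for 28.4% of all genes in either direction. At D0 1 myocyte marker, Acta1, rose with knockdown, where 2.45% of all genes were called.

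Most markers of cells that are the usual source or target of these chemokines were at or near 0. Of 10 leukocyte and macrophage markers, 4 (Ptprc, Adgre1, Aif1 and Cd3e) were listed at 0 in every library, and the list summed to 25.7 to 35.7 TPM in D2 siKctd10 and 30.7 to 38.6 TPM in D2 siCont, and to 34.6 to 45.8 TPM in D0 siKctd10 and 45.3 to 48.7 TPM in D0 siCont. Most of that was Cd14, which averaged 28.1 ± 5.55 TPM in D2 siKctd10 and 27.6 ± 3.21 TPM in D2 siCont, and 36.2 ± 4.84 TPM in D0 siKctd10 and 44.1 ± 2.15 TPM in D0 siCont. Between D2 and D0 it fell in siCont (log2 fold change -0.66, limma, adjusted p = 0.0092) and did not pass in siKctd10 (-0.36, limma, adjusted p = 0.11). Ly6g rose in siCont, at 4.64 ± 1.51 TPM at D2 and 1.42 ± 0.915 TPM at D0 (1.25, limma, adjusted p = 0.0043). Of the 3 markers that passed the filter, limma thus called 2 with the day in siCont and 0 in siKctd10, where 1 was under an unadjusted p of 0.05 and voom called 1. Of all genes, 35.5% were called with the day in siCont and 36.4% in siKctd10. The part of these markers in the day differences of the chemokines was not tested. The 6 endothelial markers summed to at most 1.65 TPM, with Emcn, Kdr and Tie1 at 0. The 3 follicular stroma markers in the files, of 4 listed, summed to at most 0.180 TPM in any library.

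Promoters of 4 of the 7 genes (Cxcl1, Cxcl12, Cxcl13 and Cx3cl1) were in the RefSeq promoter table, from 250 bases before to 50 after the start. The 150 bases before the start of Cxcl1 and of Cxcl13 are shown, because their differences had opposite signs with day and with knockdown at D2. Capitals mark overlapping matches to the NF-kB consensus at Cxcl1 and, at Cxcl13, CAGCTG (the E-box of myogenic factors) and TATAAA, searched on both strands.

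Cxcl1 (GRCm38.p6, plus strand, chr5:90891095-90891244): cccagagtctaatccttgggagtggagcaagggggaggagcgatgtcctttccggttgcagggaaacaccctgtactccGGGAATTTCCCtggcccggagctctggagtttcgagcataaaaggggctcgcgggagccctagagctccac
Cxcl13 (GRCm38.p6, plus strand, chr5:95956789-95956938): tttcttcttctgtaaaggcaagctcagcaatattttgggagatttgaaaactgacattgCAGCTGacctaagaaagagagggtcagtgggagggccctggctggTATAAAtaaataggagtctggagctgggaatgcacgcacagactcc

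The NF-kB matches at Cxcl1 begin 71 and 70 bases before the start, and 8.46% of 32851 promoters in the table hold such a match. At Cxcl13 the CAGCTG begins 91 bases before the start and the TATAAA 46 bases before it, motifs held by 16.3% and 13.6% of promoters. Cx3cl1 has a TATAAA 6 bases before the listed start, and the Cxcl12 window holds none of these motifs. The AP-1 motif TGANTCA, held by 7.81% of promoters, is in none of the 4. These are matches of letters and say nothing of binding. None of the 3' untranslated regions of the 7 genes holds a 7-base or 6-base match to the guide seed of siKctd10, where 0.852% and 3.95% of 11972 filtered genes do.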

How the data were processed

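The authors deposited 1 transcript file per library, holding coverage, FPKM and TPM for 63759 known mm10 transcripts, estimated with StringTie without assembly. The deposited TPM values sum to 1000000 in each library. The version is 1.3.3b per the file headers and 1.1.3 per the submitters' processing notes, which also name HISAT, SAMtools and DESeq2. Read counts were not used here, and depth was estimated from coverage, so no counting interval was computed.

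Transcripts were matched to GENCODE M21 genes by identical introns (42608) or at least 50% overlap of exon bases (13473), and 7678 were not matched (3.82 to 4.63% of TPM). TPM was summed per gene. Of the 13077 genes kept, 666 were listed at 0 in some library. Group means of log2(TPM + 1) over all 12 libraries were fitted with limma 3.58.1 (trend, robust, 8 residual degrees of freedom) in R 4.3.3, checked on simulated data. The genes, lists and tests were chosen with earlier results of these data known. Not every list gene past the threshold is named, so an unnamed gene may have passed. Like genes were named by the highest 3 Pearson correlations. Alternatives changed the pseudocount, filter, scaling, matching, fit, replicate block and libraries. No replicates had identical values. Deviations of same-numbered libraries from their group means had correlations of -0.021 to 0.202. Between the days in siKctd10 these were 0.046 to 0.202, against -0.142 to 0.066 for libraries with different numbers. Some link by number in that arm is therefore possible. The main fit had no replicate block, and the block was run as an alternative. 1 gene of the marker lists is not reported here.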

Additional observations from a re-analysis of the deposited data

How the results depend on the processing

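The number of chemokines called between D2 and D0 stayed at 3 to 5 of 5 in siKctd10 and 4 to 5 of 5 in siCont over all alternatives. For knockdown at D0, where 1 was called (Cx3cl1), the number was 0 with no filter on low values, with quantile normalization, with only the 2 groups in the fit and with the replicate block, and 0 to 1 in the fits that left out 1 library. With the replicate block, Cx3cl1 had a log2 fold change of 0.55 and an adjusted p of 0.068, and the 4-exon Cxcl12 transcript of 0.78 and 0.064 at D0, while the 3-exon transcript between the days in siCont had 0.051. Directions of Cxcl12, a value near 0, turned in 3 comparisons. Between D2 and D0 in siKctd10 its log2 fold change was -0.11 with median-ratio scaling, -0.031 with quantile normalization, -0.55 with voom, -0.10 to 0.12 in the fits that left out 1 library (-0.10 without D0 siKctd10 number 3) and -0.092 without both siKctd10 libraries numbered 3. In siCont it was 0 with median-ratio scaling and -0.41 with voom, and for knockdown at D2 -0.035 with median-ratio scaling and -0.036 with quantile normalization. Voom sums read pairs over transcripts of unequal length, and the cause of these turns was not tested. The other 6 genes kept their direction in all 4 comparisons. Median-ratio scaling moved the median of all genes between D2 and D0 in siKctd10 to 0.004, against 0.118, and lowered the share of knockdown calls at D0 that were higher to 47.6%, against 60.6%. Over all genes, calls at D0 numbered 72 with only the 2 groups and 118 to 306 without 1 library, against 320. Depth limits Cxcl1 at D2 and Cxcl13 at D0, which rest on an estimated 4 to 44 read pairs per library.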

Other observations

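Among the other chemokine ligands, Ccl9 averaged 2.71 ± 1.20 TPM in D2 siKctd10 and 0.70 ± 0.44 TPM in D2 siCont, without overlap, a difference that did not pass (log2 fold change 1.12, SE 0.28, limma, adjusted p = 0.052). Over all genes 28.4% did not overlap in that comparison, in either direction. Ccl25, a ligand of Ackr4 and best known from thymus and gut, averaged 1.75 ± 0.593 TPM in D2 siKctd10, against 4.18 ± 0.538 TPM in D0 siKctd10, and fell between those groups by 0.93 on the log2 scale (limma, adjusted p = 0.01). Ccl5 averaged 1.52 ± 0.352 TPM in D2 siKctd10 and was listed at 0 in the 3 D0 siKctd10 libraries (limma, adjusted p = 0.025), a call that ended without both siKctd10 libraries numbered 3 (adjusted p = 0.12). Ccl5 passed the filter on low values only through the D2 siKctd10 libraries, so the filter itself favoured this rise. Mif, which also acts through Cxcr4 and Cxcr2, averaged 78.9 ± 3.98 TPM in D2 siKctd10 and 123 ± 49.5 TPM in D2 siCont and passed in none of the 4 comparisons.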
